A study of Mus musculus with 30 samples.

Results

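CCR2low macrophages of the glioma-bearing mouse brain were compared between cells that held GFP from the tumor (GFPpos) and cells that did not (GFPneg). The libraries were chosen by their labels alone: 4 of GFPpos and 4 of GFPneg CCR2low brain macrophages, so 8 of the 30 libraries of the series (28 replicates in 8 populations after quality control and the summing of repeat runs). Each of 4 mice, numbered 22, 23, 24 and 26, gave 1 library of each kind, and the comparison was made within mice. All 8 libraries came from tumor-bearing C57BL6.CCR2RFP/WT mice of 12 to 18 weeks, a strain in which 1 copy of Ccr2 is replaced by the gene of a red fluorescent protein, so that control and test cells alike have 1 working copy. The tumor was GL261, a mouse glioma cell line, made by lentiviral transduction to carry a GFP anchored in its membranes, and implanted in the striatum about a month before the sort. Cells were sorted by CD45, CD11b, Ly6C and F4/80, a surface protein of macrophages, and then by CCR2 and GFP, and RNA was amplified from a small, fixed input with a poly-A primed kit. GFPpos therefore records glioma membrane in or on a cell at the time of the sort, not how it came there, and a GFPneg cell may have met the tumor without keeping GFP. The labels give no sex: Y-linked transcripts were found in both libraries of mice 22, 23 and 24, and Xist at 92.5 and 69.7 CPM in those of mouse 26.

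Macrophages take up membrane fragments, vesicles and dying cells through scavenger and phosphatidylserine receptors, and digest them in lysosomes. In gliomas most macrophages derive from blood monocytes, which lose Ly6C and CCR2 as they mature, while microglia are the brain's own macrophages. Scavenger receptors such as Mrc1 (CD206) and Cd163, and the folate receptor Folr2, mark macrophages of the resident or tissue-repair type. Genes such as Gpnmb, Spp1, Fabp5 and Lgals3 are known for rising in macrophages that have taken up lipid-rich material.

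Counts on genes ran from 1799420 to 4201890 per library. Levels are given as CPM, counts scaled to 1000000 per library after TMM normalization, a scaling that assumes few genes to change. P-values of the fits with the mouse as a block rest on the spread left after population and mouse are allowed for. That spread is pooled over all populations in a fit. It had 17 residual degrees of freedom over 28 replicates, 9 over the 16 macrophage libraries and 3 over the 8 CCR2low libraries. The CCR2low macrophage libraries held the defining genes of macrophages in quantity: C1qa, C1qb and C1qc, the chains of complement C1q, read 2608 CPM or more in all 8 libraries, Csf1r, the receptor of the macrophage growth factor, 2303 to 4047 CPM, and Adgre1, which encodes F4/80, 486 to 1025 CPM. Microglial genes were also present, among them Tmem119 at 597 to 2246 CPM, although the gate was set to leave microglia out. The sort markers Itgam (CD11b), Ptprc (CD45), Adgre1, Ly6c2 and Ccr2 did not separate the groups, and Ccr2 itself read 32.6 to 113 CPM in GFPneg and 35.2 to 108 CPM in GFPpos libraries. No difference within mice in total counts, genes detected, spike-in share or share of reads outside genes had an exact permutation p below 0.25 (two-sided, 0.625 after Benjamini-Hochberg adjustment over 5 measures). With 4 mice this exact test has 16 sign patterns and cannot reach 0.05.

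No gene passed in the main test, the fit that covered all populations. Of 11566 genes tested by edgeR's quasi-likelihood test over 28 replicates with the mouse as a block, 0 (0%) had an adjusted p under 0.05, and the smallest was 0.328. DESeq2 on the same libraries called 15 genes (0.13%), 3 higher and 12 lower in GFPpos cells. At an unadjusted p under 0.05 the quasi-likelihood test listed 165 genes (1.43%) as higher and 216 (1.87%) as lower in GFPpos cells. Within mice, 1023 genes (8.84%) were higher in all 4 and 1015 (8.78%) lower in all 4. In 155 genes (1.34%) every GFPpos library lay above every GFPneg library, and in 195 (1.69%) below. The median log2 fold change over all genes was 0.02.

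That fit shares 1 estimate of the spread with the blood monocytes, and its common coefficient of biological variation was 0.512, against 0.352 for the 16 macrophage libraries alone and 0.859 for the 6 blood replicates. The fit over the 16 macrophage libraries (CCR2low and CCR2high, each GFPpos and GFPneg, mouse as a block) called 76 of 10578 genes in CCR2low cells, 18 (0.17%) higher and 58 (0.548%) lower in GFPpos. With libraries scaled on the synthetic spike-in RNAs in place of TMM the same fit called 14, of which 10 were higher and 4 lower, so the balance of directions depended on the scaling. The fit over the 8 CCR2low libraries alone called 36 of 9901, 6 (0.0606%) higher and 30 (0.303%) lower, and 31 of these 36 (86.1%) were among the 76, of which they are 40.8%. All 76 had the same sign in each of the 4 mice, and 69 (90.8%) had an unadjusted p under 0.05 in the fit over 28 replicates. Their groups did not overlap in 43 (56.6%), beside 1.34% of all genes higher and 1.69% lower without overlap. The same libraries chose the 76, so these counts follow largely from that choice and are no separate support. The count of 76 rested on the mice unequally: it was 7 without mouse 22, 29 without mouse 23, 29 without mouse 24 and 58 without mouse 26. Without a block for the mouse it was 1. Fold changes below are GFPpos over GFPneg on the log2 scale with their standard error, and come from the 16-library fit by edgeR unless the fit over 28 replicates is named. A gene is said to have risen or fallen only where that 16-library fit called it. The main test was the fit over 28 replicates, which called none of these genes. Each rise or fall below therefore rests on a fit other than the main test. Whether the spread shared with the blood monocytes accounts for the different calls was not tested.

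**Figure D1:**
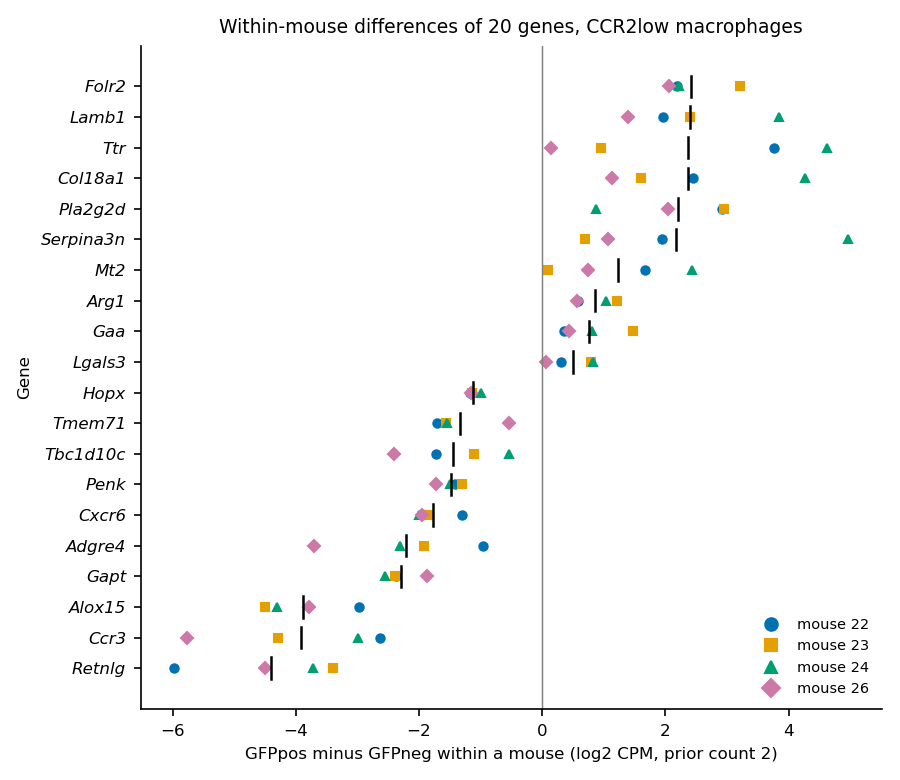
Difference between the GFPpos and GFPneg CCR2low macrophage library of each mouse (x axis, log2 CPM with a prior count of 2) for the 20 genes of the smallest unadjusted p that had the same sign in 4 mice, 10 in each direction. Points are mice and black ticks their means, and no gene of the 20 passed the adjusted threshold in the fit over 28 replicates.

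Several genes of granulocytes were lower in GFPpos cells, among them genes of eosinophils, granulocytes of type 2 immunity. Retnlg, a resistin-like secreted protein of granulocytes (chromosome 16, 48872621 to 48874496, GRCm38), is on the planned neutrophil list and does not mark eosinophils alone. It read 74.1, 348, 489 and 233 CPM in the GFPneg libraries of mice 22, 23, 24 and 26 and 0.475, 32.4, 36.4 and 9.58 CPM in the GFPpos libraries. The means were 286 ± 176 and 19.7 ± 17.4 CPM (SD, n = 4), every GFPpos library lay below every GFPneg library, and the gene fell by 4.20 ± 0.42 (adjusted p = 0.00034). Alox15, a lipoxygenase abundant in eosinophils, read 23.5, 102, 172 and 82.9 CPM in GFPneg against 2.37, 3.85, 8.06 and 5.32 CPM in GFPpos libraries (log2 fold change -4.25, adjusted p = 0.00045). Ccr3, the eotaxin receptor, went from 18.4, 71.0, 71.4 and 38.5 CPM to 2.37, 2.94, 8.36 and 0 CPM (log2 fold change -4.02, adjusted p = 0.0055). Prg2, the major basic protein of eosinophil granules, held 204 reads in the 4 GFPneg libraries together and 9 in the GFPpos libraries, and Gata1, a transcription factor of eosinophils and red cells, 89 and 6 reads. Prg2 was too low for the 16-library fit, and Gata1 had an adjusted p of 0.121 there.

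A list of 10 eosinophil genes, chosen after these values were seen, summed to 162, 643, 943 and 414 CPM in GFPneg and to 27.5, 74.4, 121 and 47.4 CPM in GFPpos libraries. Retnlg, whose levels are given above, was the most abundant member in GFPneg libraries and is also counted in the neutrophil list. Of the list's 7 tested members, 6 were lower in GFPpos without overlap, beside 1.69% of all genes. The exception was Siglecf (28.3 to 158 CPM in GFPneg, 22.3 to 65.1 CPM in GFPpos). As the members were chosen with these values known, that count does not test the list. Of its defining genes Epx, the eosinophil peroxidase, was at 0 in all 8 libraries, and Il5ra, the interleukin-5 receptor, read at most 8.51 CPM. In CCR2high macrophages of the same mice the summed list read 29.4 to 107 CPM in GFPneg and 21.7 to 89.1 CPM in GFPpos libraries.

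Transcripts of T cells, lymphocytes that carry the CD3 receptor complex, were the next group. Of 10 genes of T and NK cells, 6 fell (Cd3d, Cd3e, Cd3g, Trac, Trbc2 and Nkg7), beside 0.548% of the genes in the 16-library fit, and none rose. Cd3e, a chain of the T cell receptor complex, read 178, 229, 167 and 114 CPM in GFPneg and 68.8, 98.0, 103 and 33.0 CPM in GFPpos libraries, and fell by 1.29 ± 0.17 (adjusted p = 0.00091). Trac, the constant region of the receptor's alpha chain, read 169 to 245 CPM against 50.6 to 109 CPM and fell by 1.38 (adjusted p = 0.00034). The 4 members that did not pass were Cd4, Cd8a, Klrb1c and Ncr1. Cd4 read 105 to 151 CPM in GFPneg and 90.2 to 120 CPM in GFPpos libraries, and the NK genes Klrb1c and Ncr1 read at most 20.03 and 8.42 CPM. The summed list read 1284, 2085, 1512 and 1203 CPM in GFPneg and 610, 972, 841 and 423 CPM in GFPpos libraries, which is 0.352 to 0.556 times the GFPneg level within mice, with no overlap of the groups. On the spike-ins, which put the total of all genes at 0.671, 0.76, 3.57 and 1.43 times the GFPneg level in the 4 mice, the T and NK cell sum was lower in 3 mice and 1.94 times the GFPneg level in mouse 24, while the eosinophil sum stayed lower in 4 mice. The sign of all 76 fitted fold changes was the same under either scaling. In the 16-library fit the median of all genes was 0.016 by TMM and 0.386 on the spike-ins. In bulk RNA fewer cells of a type and less RNA per cell cannot be told apart.

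Genes of activated and regulatory T cells were among those that fell. Cxcr6, a chemokine receptor of tissue T cells (chromosome 9, 123806475 to 123811760), read 139, 252, 163 and 152 CPM in GFPneg and 56.0, 69.2, 40.3 and 38.9 CPM in GFPpos libraries (means 177 ± 51.1 and 51.1 ± 14.4, SD, n = 4), and fell by 1.79 ± 0.22 (adjusted p = 0.00069). The co-stimulatory receptor Icos fell by 1.72, Tnfrsf4 (OX40) by 1.36 and Tnfrsf18 (GITR) by 1.12. Foxp3, the transcription factor of regulatory T cells, read 47.3 to 56.3 CPM in GFPneg against 11.2 to 30.5 CPM in GFPpos libraries and fell by 1.53 (adjusted p = 0.021). Ctla4, an inhibitory receptor, fell by 1.44 and Ccr8, a receptor of regulatory T cells in tumors, by 1.40. Of a list of 8 genes of regulatory T cells, chosen after the values were seen, 6 fell, beside 0.548% of the genes in the 16-library fit. All 8 were lower in all 4 mice, beside 8.78% of all genes. As the members were chosen with these values known, these counts do not test the list. Other genes of T and NK cells among the 58 were Cd2, Cd6, Lck, Zap70, Themis, Trbc1, Gimap4, Gimap6, Ms4a4b, Klrd1, Fasl, Ltb, Sh2d2a and Tnfrsf9, of which Tnfrsf9 fell by 0.91, the least, and Themis fell by 2.90, the most. Trbc1 and Trbc2 are nearly identical in sequence, so the split of their reads is uncertain.

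Penk, the precursor of the enkephalin peptides, which T cells also make, read 120, 114, 112 and 59.3 CPM in GFPneg and 44.6, 45.7, 39.4 and 17.6 CPM in GFPpos libraries (log2 fold change -1.52 ± 0.21, adjusted p = 0.0020). Hopx, Tmem71 and Tbc1d10c fell by 1.15, 1.39 and 1.45, with no overlap between groups. Adgre4, an adhesion receptor of monocytes related to F4/80, read 8.04 to 29.3 CPM in GFPneg and 0.532 to 5.43 CPM in GFPpos libraries, but was not called (log2 fold change -2.45 ± 0.69, adjusted p = 0.151).

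The summed B cell, neutrophil and dendritic cell lists were lower in 4 of 4 mice. In each list 1 member fell, beside 0.548% of the genes in the 16-library fit. On the spike-ins the 3 sums were lower in 3 mice and 1.39, 1.42 and 2.34 times the GFPneg level in mouse 24. Cd79a, a chain of the B cell receptor, read 168, 185, 455 and 34.2 CPM in GFPneg and 69.3, 54.99, 195 and 9.58 CPM in GFPpos libraries. Levels differed more between mice than between groups, and within mice the gene fell by 1.53 (adjusted p = 0.00045). It was the only 1 of 6 tested B cell genes called, although all 6 were lower in 4 mice, beside 8.78% of all genes. Ighm (146 to 1088 CPM in GFPneg, 86.2 to 679 CPM in GFPpos) had an adjusted p of 0.316. Of the neutrophil list only Retnlg fell. S100a8 and S100a9, subunits of calprotectin, read 478 and 518 CPM in the GFPneg library of mouse 24 and 208 and 207 CPM in its GFPpos library, but at most 111 and 95.2 CPM in all other libraries (adjusted p = 0.069 and 0.072). Ccr7, a homing receptor of mature dendritic cells and T cells, fell from 177, 196, 336 and 206 CPM to 101, 90.1, 185 and 91.0 CPM (log2 fold change -1.004, adjusted p = 0.0092). It made up most of the dendritic cell sum, which read 241, 292, 452 and 247 CPM in GFPneg libraries. Of the 8 genes of that list only 1, Ccr7, was lower in all 4 mice, and the list's median was -0.20 over 28 replicates. The classical dendritic cell genes Xcr1, Clec9a and Flt3 read at most 15.2, 3.88 and 15.02 CPM.

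Together 17 of the 58 genes that fell belong to one of these 6 lists of other leukocytes and 41 do not. The latter include, besides the T cell genes named above, Cd24a, a surface protein of granulocytes and B cells (log2 fold change -2.63), Alox5, which starts leukotriene synthesis (-1.88), and Il1r2, a decoy receptor of interleukin-1 (-1.17). Some are leukocyte genes that macrophages share. Rac2, a GTPase of the actin machinery, read 735 to 1033 CPM in GFPneg and 395 to 682 CPM in GFPpos libraries and fell by 0.60 ± 0.10, and Coro1a, Lsp1 and Selplg fell by 0.42, 0.74 and 0.64. The gate asked for CD11b and F4/80, which eosinophils can carry and most T and B cells do not. The part of other cells within the gate in these differences was not tested.

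**Figure D2:**
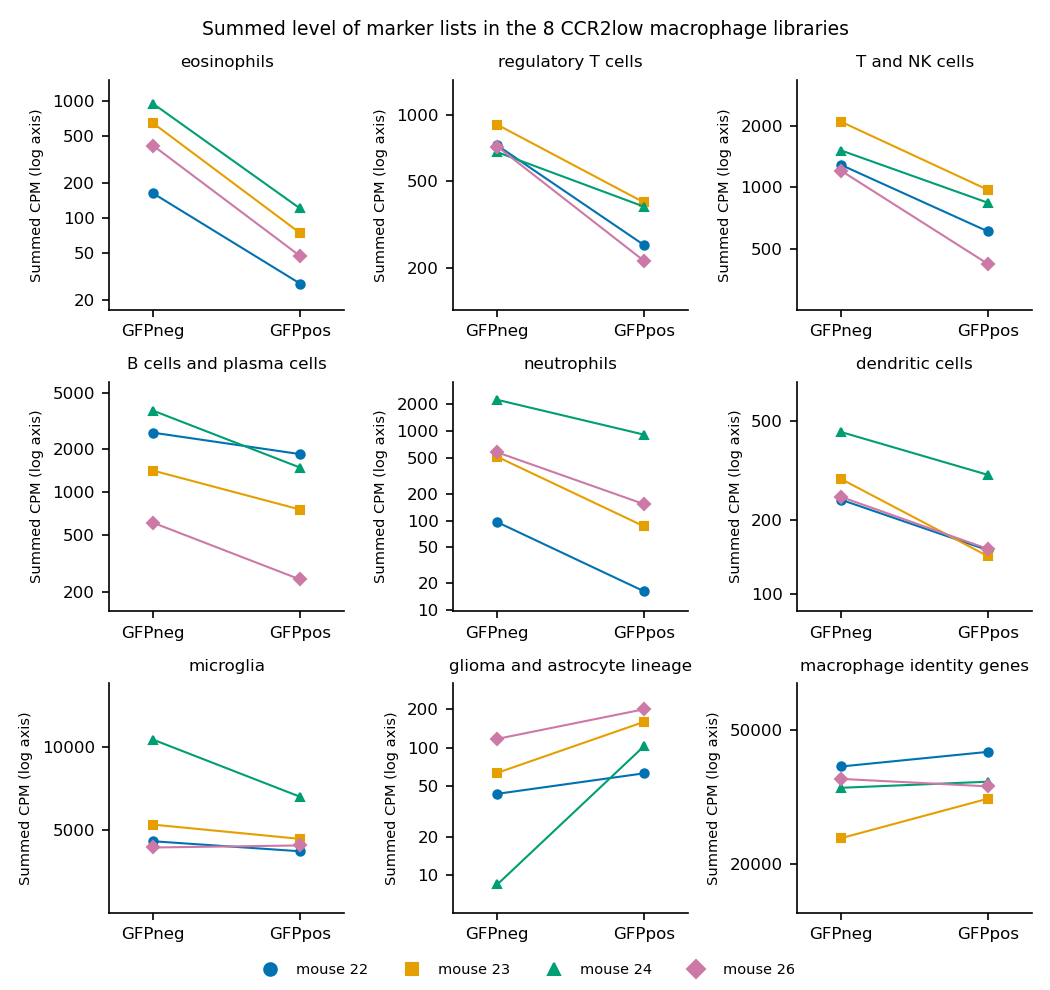
Summed CPM (y axis, log scale) of 9 lists of marker genes in the GFPneg and GFPpos CCR2low macrophage libraries, with lines joining the libraries of a mouse. The eosinophil, regulatory T cell and T and NK cell sums were lower in GFPpos in 4 of 4 mice without overlap, the macrophage identity sum was between 0.95 and 1.31 times the GFPneg level, and the glioma and astrocyte lineage sum was higher in 4 of 4 mice. On the spike-ins the regulatory T cell and the T and NK cell sums were 1.96 and 1.94 times the GFPneg level in mouse 24, and the glioma sum was 0.96 times in mouse 22. The eosinophil and regulatory T cell lists were chosen after the values were seen, so their separation follows from that choice.

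Of the 18 genes that rose, 2 are on the list of phagocytic and scavenger receptors, 2 on that of lipid handling and 4 on that of resident and border macrophages. Pla2g2d, a secreted phospholipase of tissue macrophages (chromosome 4, 138775735 to 138782046), read 9.76, 5.01, 11.3 and 6.42 CPM in GFPneg and 78.8, 43.7, 21.5 and 28.7 CPM in GFPpos libraries. The groups, with means of 8.13 ± 2.92 and 43.2 ± 25.5 CPM (SD, n = 4), did not overlap, and the gene rose by 2.46 ± 0.44 (adjusted p = 0.013). Folr2, a folate receptor of resident macrophages, went from 1.72, 4.10, 1.42 and 12.3 CPM to 10.4, 43.7, 9.26 and 53.2 CPM (log2 fold change 2.76, adjusted p = 0.015). Mrc1, the mannose receptor, read 64.9, 65.8, 87.0 and 374 CPM in GFPneg and 135, 246, 202 and 517 CPM in GFPpos libraries. The level in mouse 26 stood above the others in both groups, and within mice Mrc1 rose by 1.16 ± 0.19 (adjusted p = 0.0070). Colec12, a scavenger receptor of the collectin family, read 4.32 to 14.97 CPM in GFPneg and 33.3 to 56.4 CPM in GFPpos libraries and rose (log2 fold change 2.32, adjusted p = 0.010).

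Fcna, a ficolin that binds microbial sugars, held 3, 0, 0 and 2 reads in the GFPneg libraries and 22, 63, 9 and 49 in the GFPpos libraries (adjusted p = 0.047), so its fold rests on 5 reads. Cd163, the hemoglobin scavenger receptor, held 10 reads against 242, of which 130 were in mouse 26, and had an adjusted p of 0.195. A list of 13 genes of resident and border macrophages, chosen after the values were seen, summed to 449, 590, 445 and 1846 CPM in GFPneg and 951, 1792, 782 and 3140 CPM in GFPpos libraries, 1.70 to 3.03 times the GFPneg level within mice and 1.41 to 6.12 times on the spike-ins. Of its members 4 rose (Fcna, Folr2, Mrc1 and Pla2g2d), beside 0.17% of the genes in the 16-library fit, and none fell. As the members were chosen with these values known, that count does not test the list. Lyve1, the gene most used to mark border macrophages, read at most 6.39 CPM.

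Of 23 tested phagocytic and scavenger receptors, 2 rose (Colec12 and Mrc1), beside 0.17% of the genes in the 16-library fit, and none fell. The list's median log2 fold change was 0.33 in the fit over 28 replicates, against 0.02 for all genes. Clec7a, the beta-glucan receptor dectin-1, read 730 to 1067 CPM in GFPneg and 1070 to 2291 CPM in GFPpos libraries without overlap, and did not pass (adjusted p = 0.119). The receptors of apoptotic cells Mertk and Axl, at 102 to 229 and 526 to 1476 CPM, had log2 fold changes of 0.32 and 0.34 (adjusted p = 0.639 and 0.667), and Havcr2 (TIM-3) of -0.19 (adjusted p = 0.675). The 12 Fc gamma and complement receptors had a median of 0.23 and no member that passed. Genes of the engulfment and actin machinery had a median of -0.05, which turned positive (0.09) when libraries were scaled on the spike-ins, and the only one to pass was Rac2.

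Genes of tissue repair and of heme and metal handling were among those that rose. Arg1, arginase 1, an enzyme of tissue repair and immune suppression (chromosome 10, 24915221 to 24927484), read 177, 684, 290 and 1243 CPM in GFPneg and 264, 1597, 595 and 1841 CPM in GFPpos libraries. Mice differed more than the groups, and within each mouse the GFPpos library was the higher, with a rise of 0.84 ± 0.14 (adjusted p = 0.0082). Hmox1, heme oxygenase 1, which degrades heme, read 225, 208, 124 and 893 CPM against 418, 371, 248 and 1146 CPM and rose by 0.76 ± 0.12 (adjusted p = 0.0054). Igf1, insulin-like growth factor 1, rose by 1.12 (25.8 to 67.6 CPM against 50.3 to 169 CPM), C4b of complement by 1.01, the matrix protein Fn1 by 1.47 and the metallothionein Mt1 by 0.62. The interleukin-18 binding protein Il18bp rose by 0.61, and H2-M2, a non-classical class I molecule, by 0.80. Of 20 anti-inflammatory and repair genes, 3 rose (Arg1, Igf1 and Mrc1), beside 0.17% of the genes in the 16-library fit, and none fell. Retnla, a resistin-like gene of the same list, was lower (2.73 to 15.6 CPM in GFPneg, 0 to 1.597 CPM in GFPpos) with an adjusted p of 0.121. Of 16 pro-inflammatory genes none passed. Il1b read 445 to 2179 CPM in GFPneg and 418 to 1534 CPM in GFPpos libraries (log2 fold change -0.16 ± 0.26 in the fit over 28 replicates). Nos2, the inducible nitric oxide synthase, read 25.8, 20.3, 1.89 and 148 CPM against 28.5, 86.7, 23.6 and 172 CPM (adjusted p = 0.211).

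Lipid genes leaned the same way. Of 24 genes of lipid handling 11 were higher in all 4 mice, beside 8.84% of all genes, and none was lower in all 4. Of the 24, 2 rose, beside 0.17% of the genes in the 16-library fit. Spp1, osteopontin, rose by 0.94 ± 0.17, from 1358, 1064, 565 and 1967 CPM to 1993, 2571, 1558 and 2969 CPM (adjusted p = 0.014). Fabp5, a fatty acid binding protein, went from 224, 207, 161 and 402 CPM to 395, 330, 315 and 545 CPM (log2 fold change 0.70, adjusted p = 0.011). Gpnmb, a glycoprotein of lysosome-rich macrophages, read 431, 938, 125 and 963 CPM against 1232, 1374, 1312 and 1771 CPM. The groups did not overlap, but the size differed between mice and the gene did not pass (log2 fold change 1.4995 ± 0.41, adjusted p = 0.202). Lgals3, galectin-3, was higher in 4 mice (log2 fold change 0.47, adjusted p = 0.114), while Apoe (4340 to 9972 CPM in GFPneg, 4997 to 11700 CPM in GFPpos) and Trem2 (406 to 699 and 429 to 594 CPM) had log2 fold changes of 0.24 and 0.01 with adjusted p of 0.886 and 0.996. The summed lipid list was 1.17 to 1.70 times the GFPneg level in each mouse by TMM, and 0.827, 0.999, 5.93 and 1.72 times on the spike-ins, so its direction held in 2 of 4 mice there.

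Lysosomal genes differed by less. Of 37 tested, 1 rose, beside 0.17% of the genes in the 16-library fit. It was Atp6v0d2, a subunit of the proton pump, at 4.59, 28, 10.9 and 13.4 CPM in GFPneg and 17.6, 95.7, 80.6 and 68.1 CPM in GFPpos libraries (log2 fold change 2.18, adjusted p = 0.023). The lysosomal phospholipase-like protein Pld3 is not on that list and rose from 454 to 630 CPM to 688 to 846 CPM without overlap (log2 fold change 0.57 ± 0.11, adjusted p = 0.016). Gaa, acid alpha-glucosidase, read 253, 190, 198 and 375 CPM against 321, 531, 346 and 508 CPM and did not pass (log2 fold change 0.78, adjusted p = 0.079). Cathepsins B, D and S, at 5290 CPM or more in all libraries, had log2 fold changes of 0.28, 0.18 and 0.00 in the 16-library fit, and the list's median over 28 replicates was 0.19.

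**Figure D3:**
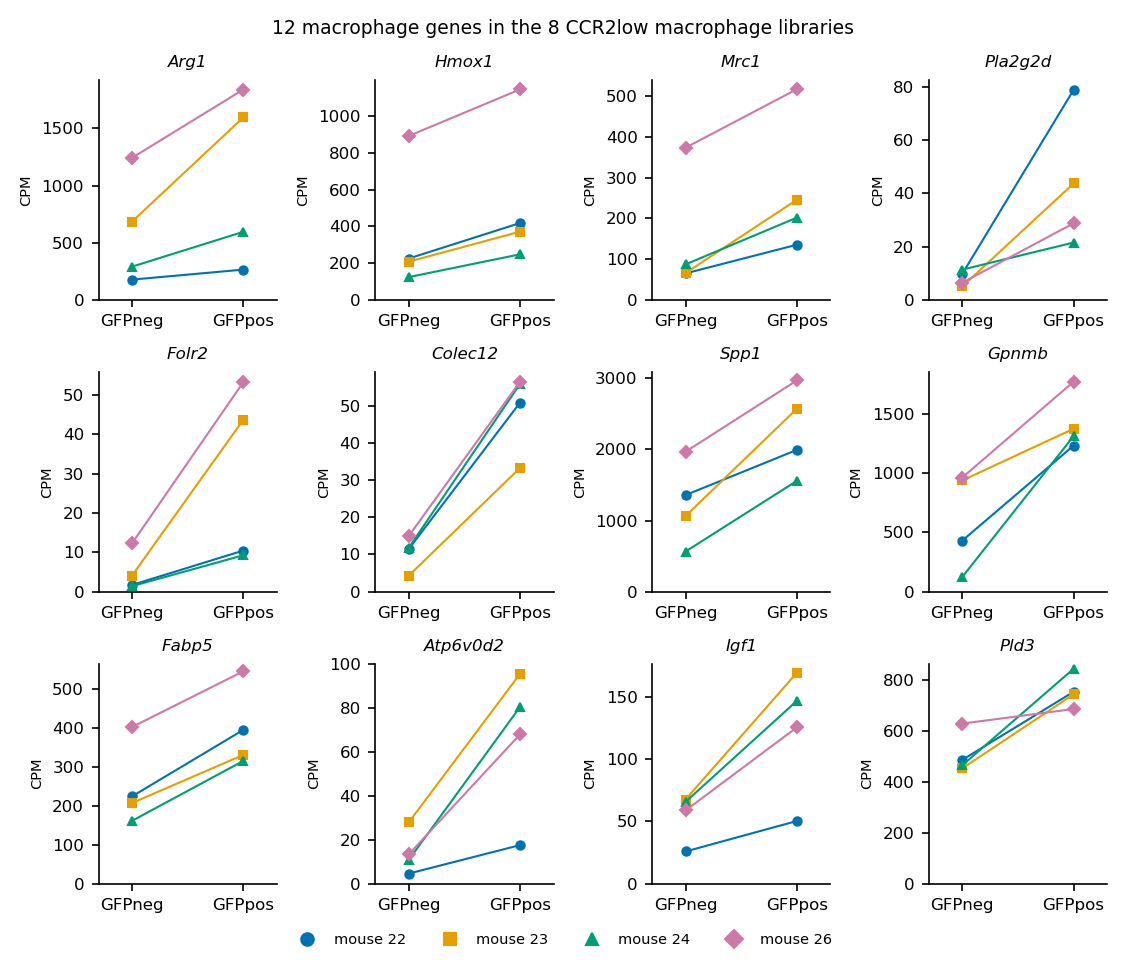
CPM (y axes from 0) of 12 macrophage genes in the GFPneg and GFPpos CCR2low macrophage libraries, with lines joining the libraries of a mouse. All 12 were higher in GFPpos cells of 4 of 4 mice, and all but Gpnmb passed in the 16-library fit. The 12 were chosen for display with these values known, so their shared direction follows largely from that choice.

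Antigen presentation did not separate the groups. Of 10 genes of MHC class II presentation and 15 of class I none passed, with medians of -0.06 and 0.07 over 28 replicates. H2-Aa read 3932 to 7076 CPM in GFPneg and 4484 to 7923 CPM in GFPpos libraries. The class II median turned positive (0.11) on the spike-ins, as did those of the co-stimulation genes (-0.045 to 0.15) and of the immediate-early and heat-shock genes (-0.085 to 0.17), and these were the only lists besides the engulfment genes to turn. On that scaling the median of all genes was 0.191, so each of these list medians stayed below it. The summed immediate-early and heat-shock list was 0.887 to 0.973 times the GFPneg level by TMM. Medians of the chemokine, interferon, hypoxia, iron and heme, endosome, tetraspanin and cell cycle lists lay between 0.00 and 0.22, and the members called in them were Hmox1, which rose, and Isg20 and Cd82, which fell by 0.87 and 0.78. Mitochondrially encoded transcripts summed to 1.2 to 1.39 times the GFPneg level in the 4 mice by TMM (higher in 2 of 4 on the spike-ins), and of 7 tested only mt-Co1 rose (by 0.36 ± 0.07).

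The summed list of genes that mark glioma cells and astrocytes was higher in GFPpos cells in every mouse by TMM, at low levels, and in 3 of 4 mice on the spike-ins. Of its 10 tested members 5 were higher in all 4 mice, beside 8.84% of all genes. The sum read 43.6, 63.7, 8.51 and 118 CPM in GFPneg and 63.1, 160, 103 and 201 CPM in GFPpos libraries, 1.45 to 12.1 times the GFPneg level within mice. Ptprz1, a receptor phosphatase of glial cells, read 0, 4.10, 0.473 and 7.48 CPM against 5.70, 27.8, 10.8 and 22.9 CPM (adjusted p = 0.128), and Cspg4 (NG2) 1.72, 9.33, 1.42 and 22.99 CPM against 8.07, 30.1, 16.1 and 72.9 CPM (adjusted p = 0.114). Aldh1l1, an enzyme of astrocytes, read 26.4, 19.4, 5.199 and 35.3 CPM against 12.8, 42.8, 27.5 and 17.6 CPM, higher in 2 mice and lower in 2. Olig2 held 6 reads in GFPneg and 55 in GFPpos libraries, Sox9 was at 0 in all GFPneg libraries and at most 1.49 CPM in GFPpos, and none of the 10 tested members passed. The matrix genes Lamb1 and Col18a1 and the protease inhibitor Serpina3n, which astrocytes make, were also higher in 4 mice, at 0 to 116 CPM in GFPneg and 9.56 to 243 CPM in GFPpos libraries with adjusted p of 0.114, 0.146 and 0.295. Ttr, transthyretin of the choroid plexus, read 16.6, 46.2, 6.14 and 13.4 CPM against 234, 90.3, 168 and 14.9 CPM (adjusted p = 0.397), and the summed endothelial and neuronal lists were higher in 4 mice, the oligodendrocyte list in 3 and the fibroblast list in 1. Their part in the macrophage genes above was not tested. In CCR2high macrophages the glioma list was higher in GFPpos in 2 of 4 mice.

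The microglial list was lower in GFPpos cells of 3 mice and 1.02 times the GFPneg level in mouse 26. P2ry12, a purine receptor of microglia, read 520, 631, 1806 and 250 CPM in GFPneg and 282, 372, 636 and 238 CPM in GFPpos libraries, with a log2 fold change of -0.83 and an adjusted p of 0.082. Sparc, a matrix protein that microglia also make, read 2123 CPM in the GFPneg library of mouse 24, where the microglial sum was highest. None of the 10 microglial genes passed.

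**Figure D4:**
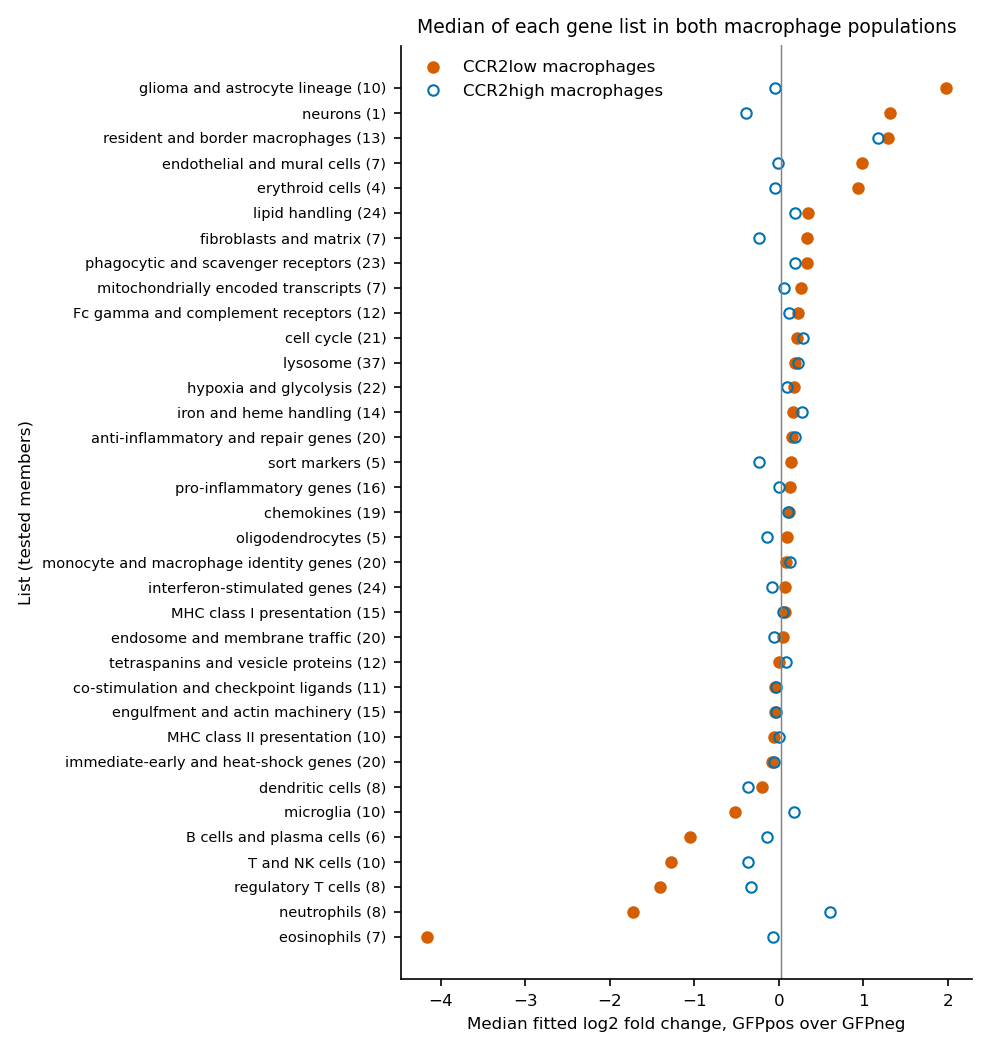
Median fitted log2 fold change (x axis, GFPpos over GFPneg, fit over 28 replicates) of each gene list, with its number of tested members, in CCR2low (filled) and CCR2high macrophages (open), and the median of all genes as a line. The eosinophil, regulatory T cell and resident macrophage lists were chosen after the values were seen, so their places are set by that choice, and in CCR2low cells the T and NK cell list stands at -1.28 and the lipid list at 0.34.

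The question whether CCR2low cells differ from CCR2high cells in what goes with GFP was addressed by a test of the difference between the contrasts, which share mice but no library. Of 11566 genes 0 (0%) passed over 28 replicates (182 at an unadjusted p under 0.05), and of 10578 genes 0 (0%) over 16 libraries (505 unadjusted). DESeq2 over 28 replicates called 2 (0.0173%), Gm12258 and Ighv1-80, which read at most 5.88 and 11.5 CPM in the 8 CCR2low libraries. DESeq2 over the 16 libraries called 17 (0.178%), 3 more positive and 14 more negative in CCR2low cells, and 11 of the 17 are among the 76. The 11 are Alox15, Ccr3, Ccr8, Cd24a, Cd3e, Cd3g, Cd79a, G0s2, Retnlg, Themis and Trac, all more negative in CCR2low cells. The quasi-likelihood fit over the 22 brain libraries called 1 (0.00886%), Retnlg (difference -3.97 ± 0.62, adjusted p = 0.037). The difference therefore rested on the tool and the libraries in the fit. In the quasi-likelihood fit over 16 libraries the smallest adjusted p was 0.0804, for Retnlg. In CCR2high cells Retnlg read 1.92, 17.5, 29.6 and 14.96 CPM in GFPneg and 0, 18.1, 42.7 and 5.78 CPM in GFPpos libraries. Cd3e read 41.7 to 105 CPM in GFPneg and 43.7 to 119 CPM in GFPpos CCR2high cells (unadjusted p of the difference from CCR2low 4.9e-05, adjusted p = 0.171). The summed T and NK cell list and the regulatory T cell list were lower in GFPpos CCR2high cells in 4 of 4 mice too, at 525 to 1390 CPM against 420 to 950 CPM for the former.

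The 18 genes that rose in CCR2low cells all had the same sign in CCR2high cells, and of the 58 that fell 49 (84.5%) did, beside 54.5% of all 10578 genes. Of the 5 genes called in CCR2high cells in that fit (0.0473%), Hmox1, H2-M2 and Pld3 are among the 18, and Cst7 and Ctsd are not. Pld3 went from 396, 423, 394 and 483 CPM in GFPneg to 601, 692, 658 and 830 CPM in GFPpos CCR2high cells, a rise of 0.71 ± 0.11 (adjusted p = 0.022). Pla2g2d read 14.1, 3.33, 17.6 and 5.29 CPM against 84.8, 22.7, 69.6 and 18.04 CPM there (log2 fold change 2.24, adjusted p = 0.069) and Atp6v0d2 0, 12.1, 20.6 and 5.52 CPM against 24.2, 75.4, 40.3 and 35.2 CPM (adjusted p = 0.069). Fcna read 1.28 to 4.16 CPM in GFPneg and 0.610 to 15.7 CPM in GFPpos CCR2high cells. Arg1 had a log2 fold change of 0.24 there (adjusted p = 0.9997) and was higher in GFPpos in 3 of 4 mice. The difference of Arg1 between CCR2low and CCR2high cells did not pass (0.60 ± 0.20, adjusted p = 0.844), and neither gene was among those called for the difference above.

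**Figure D5:**
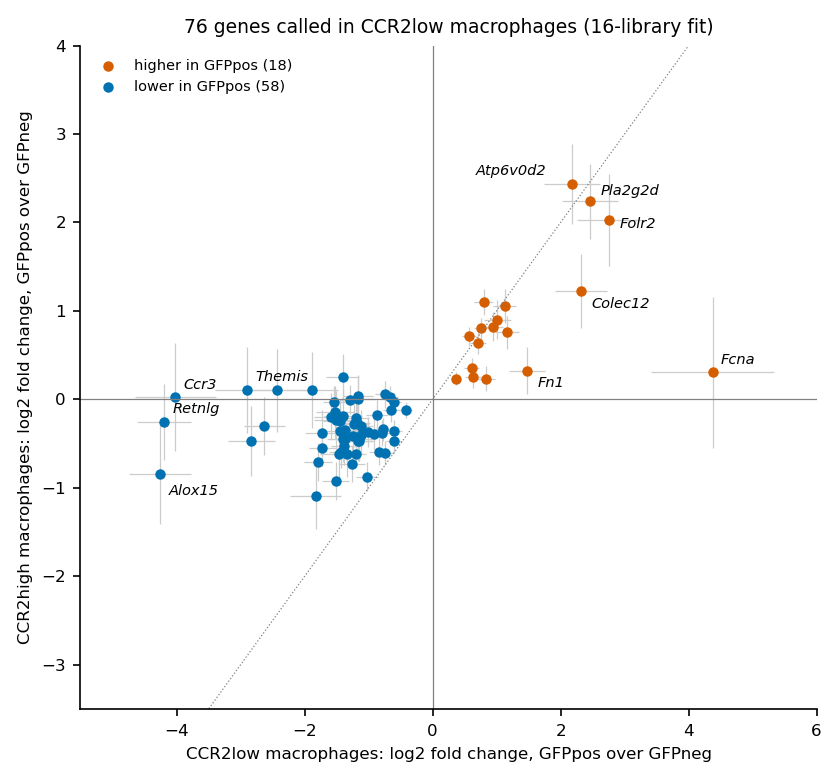
Log2 fold change of GFPpos over GFPneg with its standard error in CCR2low (x axis) and CCR2high macrophages (y axis) for the 76 genes called in CCR2low cells, fit over 16 macrophage libraries, with the line of equality dotted. The 18 genes that rose lie above 0 on both axes, and Retnlg, Alox15 and Ccr3, at -4.20, -4.25 and -4.02 in CCR2low cells, lie at -0.25, -0.84 and 0.03 in CCR2high cells.

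Glioma monocytes, with 3 mice, gave 0 genes (0%) whose contrast differed from that in CCR2low macrophages over 28 replicates, with 575 at an unadjusted p under 0.05 and a smallest adjusted p of 0.798. DESeq2 called 5 (0.0432%): Adssl1, F13a1 and Ttr, more positive in CCR2low macrophages, and Alox5 and Prg2, more negative. The quasi-likelihood fit over the 22 brain libraries called 13 (0.115%), 4 more positive and 9 more negative in CCR2low macrophages, and 7 of them, Alox5, Cd3g, Cd79a, Cxcr6, Gimap4, Retnlg and Trac, are among the 76 and were more negative.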

How the data were processed

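The authors deposited whole-number read counts per gene without normalization for 30 libraries. Per the study's methods and the labels, reads were aligned to mm10 with STAR, duplicates were removed with Picard (1.8.4 in the submitters' processing notes) and reads within single genes counted with HTSeq. A strand setting is not given in the sources used here, so overlapping antisense genes cannot be told apart. Reads removed as duplicates or as ambiguous are missing from the counts, and reads on no gene (7.76% to 11.6% in the 8 libraries) and ambiguous reads (1.64% to 1.83%) were left out of library sizes. Libraries needed 6000 genes with 5 or more reads, 1 library (of blood) failed, and the repeat libraries of 1 monocyte sample were summed. The 8 libraries compared all passed. The chi-square test of counts found no pair of the same group within sampling noise.

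Counts were fitted with edgeR 4.0.16 in R 4.3.3 (TMM, filterByExpr, robust quasi-likelihood, Benjamini-Hochberg) over 28 replicates, with the mouse number as a block, because the comparison pairs libraries of a mouse. Libraries with the same number correlated by 0.157, 0.117, 0.351 and 0.395 in their deviations from the group means. Those with different numbers correlated by -0.354 to 0.124. The GFPneg library of mouse 26 and the GFPpos library of mouse 23 reached 0.117, the same as the pair of mouse 23. Sex-linked transcripts matched within numbers. They set only mouse 26 apart, so they cannot check the pairing among mice 22, 23 and 24. DESeq2 1.42.0 and other sets of libraries were alternatives. Standard errors are the fold change over the square root of F. The genes named are the 10 per direction of smallest p among those averaging 10 CPM or more with 1 sign in 4 mice, the 3 most abundant members of each list and members at an unadjusted p under 0.05. Genes named only as calls of the 16-library fit, and single members given for completeness, were chosen after their values were seen. The members and lists were chosen with earlier results of these data known. Positions are from GENCODE vM21 on GRCm38, which holds 11132 of the 11566 symbols tested (96.2%). The fit over 28 replicates was tested on simulated counts that held no difference between mice. The 16-library fit was not tested in that way. A gene at 0 in a library may still have up to 3 counts, and such limits cover counting error only. Separate mice are taken from the numbers in the titles.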

Additional observations from a re-analysis of the deposited data

Results flagged for a closer look

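Of 122 groups of 4 libraries examined, 11 held a library that stood apart, by Dixon's test at the 95% level on the gap to its nearest neighbour, which chance gives in about 1 in 20 groups. In mouse 23 the GFPneg library was deeper, with 3810000 counts on genes after rounding against 1799000 to 2062000 in the others. Mouse 24 held the highest microglial sum of the GFPneg libraries, 10610 CPM against 4334 to 5240, and the highest neutrophil and dendritic cell sums of the GFPpos libraries, 915.6 CPM against 16.1 to 152.8 and 303.4 CPM against 142.3 to 152.2.

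Mouse 26 stood apart in 6 of the 11. Its GFPneg library read 33.14 CPM of hemoglobin and other erythroid genes, against at most 2.30, and 1846 CPM over the list of resident and border macrophages, against 445.2 to 590.5. Its GFPpos library had the lowest sum of engulfment and actin genes, 4602 CPM against 5147 to 5245. Lamb1 was highest in mouse 26 in both groups, at 17.64 CPM in GFPneg and 47.37 CPM in GFPpos cells, and Penk lowest in its GFPneg library, at 59.33 CPM against 112 to 120. The lysosomal sum was highest in the GFPpos library of mouse 22, 72210 CPM against 61040 to 62720.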

How the results depend on the processing

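The number of genes called was 0 over 28 replicates with the replicate block, and also without it, with DESeq2 size factors, with spike-in scaling, with either filter and without any library or mouse (0 to 0). It was 36 over the 8 CCR2low libraries, 76 over the 16 macrophage libraries, 15 with DESeq2 and 5 with DESeq2 without the block. Alternatives added after the data were seen gave 35 over the 22 brain libraries and, over 16 libraries, 1 without the block, 74 with DESeq2 size factors, 14 with spike-in scaling (10 higher, 4 lower), 208 with DESeq2 and 7 to 71 with a mouse or library left out. The lowest count, without mouse 22, kept Alox15, Cd24a, Cd79a, Cxcr6, G0s2, Retnlg and Trac of the 76.

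Genes at an unadjusted p under 0.05 numbered 381 over 28 replicates. Without the replicate block, that is without the pairing by mouse, they were 184, with DESeq2 without the block 233, with spike-in scaling 138, with a filter of 1 count 637 and with 10 counts in every library 187. Over 8, 16 and 22 libraries they were 861, 1060 and 826, and over 16 libraries 1062 with DESeq2 size factors and 1234 with DESeq2. They were 223 to 400 with a mouse or library left out, and 755 to 1387 over 16 libraries.

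For the difference from CCR2high macrophages, with 0 genes over 28 replicates, DESeq2 called 2 with the block and 1 without it, and 17 over 16 libraries, the fit over 22 brain libraries 1, and fits without a library or mouse 0 to 3, with 3 without the GFPneg library of mouse 24. For the difference from monocytes, also 0, DESeq2 called 5 and 2, and the fit over 22 brain libraries 13. The 20 genes of smallest p kept their direction in all 271 values from other settings and all 480 with a mouse or library left out. These genes were chosen for having the same sign in every mouse, and the other settings refit the same data. Their kept direction therefore follows largely from that choice and is no separate support. Of the list medians, 41 of the values from other settings and 32 of those with libraries left out moved beyond the spread between mice. The folds of Fcna, Prg2 and Gata1 are limited by 5, 9 and 6 reads in the lower group. Why the fits differ in their calls was not tested.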
